A study of Caenorhabditis elegans with 2 samples.

Results

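The genes described here lie on the internal segment of the X chromosome of Caenorhabditis elegans and had at least 20 counts in the wild-type gonad library. The segment runs from 7.77 to 16.51 Mb on X in WBcel235, a length of 8.74 Mb, and the deposited table places 3014 of its 46739 genes wholly inside it. Of these, 271 passed the minimum and are called the members. They were chosen by their wild-type count, so every fold below contains the value that chose them, and folds are given as a description with no test. Of the members, 265 were protein coding genes, 2 were lincRNAs, 2 were other ncRNAs and 2 were pseudogenes.

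The gonads came from adults about a day past L4, dissected from the worm, and each strain gave 1 library. The wild type was N2. YBT7 is 1 outcrossed line that carries deg-1(huj32), linc-20(huj2) and hujCf1. Its X chromosome is cut at both borders of the internal segment. The middle of X thus exists apart from a linear segment made of the joined chromosome ends. The paper reports that the borders of the internal segment are fused to each other and proposes that this segment is a circle. The source label of the YBT7 sample also holds the words wild type, its sample name is D3, and the genotype and title were followed here. The labels say neither how many animals each library holds nor whether other tissue was carried along with the gonads.

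In the hermaphrodite gonad, germ cells pass from mitosis through meiosis to oocytes. The X chromosome is kept largely silent in most of these cells, with repressive histone marks laid down by the MES proteins, and X-linked genes become active in late pachytene and in oocytes. Genes needed in every germ cell are scarce on X. Somatic cells lower X transcription by another route, the dosage compensation complex, which is recruited through SDC-2.

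The values are read counts per gene. Each was divided by the size factor of its library (0.816 for wild type and 1.22 for YBT7) to give a scaled count, and the ratio is the scaled count in YBT7 over that in wild type. Raw totals were 2873065 counts in wild type and 4525439 in YBT7. The interval after a ratio is an exact conditional interval at 95% that covers counting error only, because there is no replicate and amplified reads are not independent molecules. A gene is called higher or lower where its mean scaled count is above 5 and its log2 ratio is farther from 0 than 1 plus 5 divided by the square root of that mean. The reads come from the 3′ ends of transcripts, so counts were not divided by gene length and levels were not ranked per length between genes. Reads shared by overlapping genes or by near-identical copies were not counted. By whole gene spans on either strand, 76 members overlap another gene, which leaves their single values uncertain. How many of them share exon reads was not determined.

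The linc-20 gene, which the deletion at the right border removes, had 4 wild-type counts and 0 in YBT7. The deg-1 gene, split by the cut at the left border, had 1 and 3. Markers of the tissue gave a check of the dissections. The summed scaled counts of 6 germline markers were 5595 and 4502, and those of 6 oocyte markers 34020 and 31162, with no gene of either list called. Markers of intestine, body wall muscle, and hypodermis and cuticle moved more. The summed level of 12 intestine markers was 3276 in wild type and 39110 in YBT7 (11 called higher, with elt-2 and ges-1 at 0 in wild type), and that of 6 body wall muscle markers was 779 and 3682 (5 called higher). The level of 5 hypodermis and cuticle markers was 514 and 5820 (3 called higher, rol-6 at 0 in both libraries). The level of 5 neuron markers was 1335 and 1533 (2 called higher). That of 5 somatic gonad markers was 572 and 625, with none called and fkh-6 and lim-7 at 0 in wild type. Sperm markers moved the other way, from 219 to 33.5 over 6 genes, with 4 called lower, spe-9 at 0 in both libraries and gsp-3 at 0 in YBT7. The part of these tissue differences in the results below was not tested, and with bulk RNA fewer cells of a type cannot be told apart from less RNA per cell.

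Of the 3014 genes of the segment 2227 had no count in wild type (73.9%, against 73.1% of linear X and 73.6% of autosomal genes), 343 had 1 to 4 and 173 had 5 to 19. Among protein coding genes, 19.4% of the 1364 on the segment reached 20 counts, close to the 20.1% of 1299 on the linear segment, against 31.5% of 16988 on the autosomes. The members were also low. Their median was 50 raw counts in wild type, against 52 for the 268 linear X genes and 206 for the 5439 autosomal genes chosen in the same way. Of the members 54 reached 100 counts and 11 reached 500. Together the members held 1.16% of the wild-type library and 1.37% of the YBT7 library.

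A few genes made up a large share of that total. The 10 members with the highest wild-type counts held 44.5% of the members' counts in wild type and 51.9% in YBT7. The neighbouring genes F23A7.4 and F23A7.8 came first, F23A7.4 with 3920 wild-type counts and 7166 in YBT7, giving a ratio of 1.22 (1.17 to 1.27). F23A7.8 had 3736 and 6618, a ratio of 1.18 (1.13 to 1.23). Both were slightly above equality, and neither was called. C39D10.7 had 876 and 1438 counts, a ratio of 1.09 (1.005 to 1.19). For tbh-1, the tyramine beta-hydroxylase of octopamine synthesis, the counts were 851 and 1445, a ratio of 1.13 (1.04 to 1.23). The 14-3-3 gene ftt-2 had 737 and 987, a ratio of 0.893 (0.811 to 0.984). The ratios of these 5 genes thus lay between 0.893 and 1.22, while others of the 10 moved more. Y62H9A.6, Y62H9A.5 and ZC373.2 had ratios of 1.98, 2.09 and 3.27, and ZC373.2 was called higher. The ABC transporter gene mrp-4 was lower, with 632 and 553 counts (ratio 0.583, 0.519 to 0.655), and the lincRNA gene linc-7 was higher, with 567 and 1676 (ratio 1.97, 1.79 to 2.17), neither of them called.

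Most members were lower in YBT7 and a small group was much higher. The median log2 ratio of the 271 members was -0.65, against -0.24 for linear X genes, -0.12 for autosomal genes and -0.13 for all 5991 genes with at least 20 wild-type counts. Medians on chromosomes I to V ran from -0.13 to -0.10. A log2 ratio below -0.5 was found for 153 members (56.5%), for 33.6% of the linear X genes and for 11.5% of the autosomal genes, with 14.5% among all genes chosen in this way. Below -1 were 83 members (30.6%), 7.09% of the linear X genes and 1.73% of the autosomal genes, with 3.27% among all. At the other end, 35 members (12.9%) were above 0.5, against 21.3% of linear X and 7.81% of autosomal genes (8.78% of all), and 23 members (8.49%) were above 1, against 13.1% and 2.78% (3.54% of all). The interval lay wholly below 1 for 140 members, wholly above 1 for 45, and held 1 for 86. Intervals were not counted in this way for other genes, and the choice on the wild-type count favours intervals below 1.

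**Figure D1:**
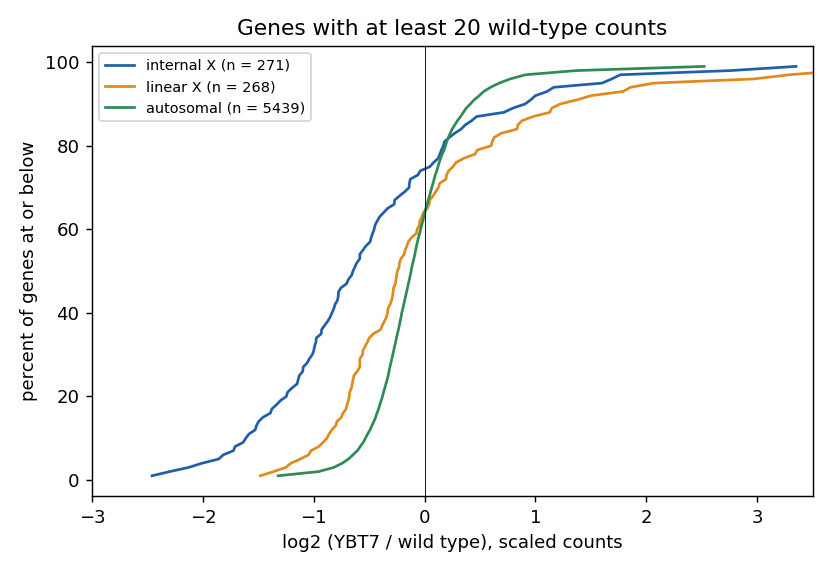
Percent of genes (vertical axis) at or below a given log2 ratio of YBT7 to wild type in scaled counts (horizontal axis), drawn at percentiles 1 to 99 for genes with at least 20 wild-type counts on the internal X segment (271 genes), the linear X segment (268) and the autosomes (5439). The internal curve lies to the left of the others through most of its length, with 56.5% of members below -0.5 against 33.6% and 11.5%, and it crosses the autosomal curve above 0, where 12.9% of members and 7.81% of autosomal genes exceed 0.5.

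By the calling rule, 15 members were higher and 21 lower. Among all genes with at least 20 wild-type counts 2.44% were called higher and 1.07% lower, and among all 8618 genes with a mean scaled count above 5, whatever their wild-type count, these shares were 9.55% and 1.25%. The members' shares were 5.54% and 7.75%. On the linear segment 27 genes were called higher and 1 lower, and on the autosomes 101 and 42. The shares stood farther apart among well counted genes. Of genes with at least 100 wild-type counts, 13 in the whole genome were called lower, and 12 of them were among the 54 internal members (22.2%). None of the 70 linear X genes and 1 of the 3943 autosomal genes, T05A12.4 on chromosome IV (117 and 36 counts, named after its value was seen), was called lower at this minimum. All of these shares use the count that chose the genes, and a choice on the wild-type count favours lower ratios.

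The choice was therefore varied. With the genes chosen on their YBT7 count instead, 272 internal genes had a median of 0.10, against 0.14 for 320 linear X genes and -0.08 for 5785 autosomal genes, so the negative median was lost. The lower tail was still heavier on the internal segment. Below -0.5 were 33.1% of internal, 20.3% of linear X and 8.89% of autosomal genes, and below -1 were 13.97%, 2.81% and 0.363%. This choice disfavours lower genes, as the choice on wild type favours them. Chosen on the mean of both libraries, 287 internal genes had a median of -0.43, 314 linear X genes -0.02 and 5633 autosomal genes -0.10. When the wild-type reads were divided at random into a part that chose the genes and a part that was measured, 273 internal genes had a median of -0.58 and 56.4% were below -0.5, against 29.3% of linear X and 12.6% of autosomal genes. Both parts come from 1 library of the same animals and dissection, and reads amplified from 1 molecule can fall in both. This division therefore bears on counting error only, and a gene high in that library for another reason stays high in both parts.

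Members of each wild-type count class had a median below that of all genes. The median log2 ratio of members was -0.58 with 20 to 29 wild-type counts, -0.58 with 30 to 49, -0.75 with 50 to 99, -0.46 with 100 to 199 and -0.56 with 200 or more. Linear X genes in the same classes gave -0.25, -0.29, -0.26, -0.33 and 0.09. Members with 200 or more counts were also the most spread, with quartiles of -1.61 and 0.26, although counting error is least there.

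**Figure D2:**
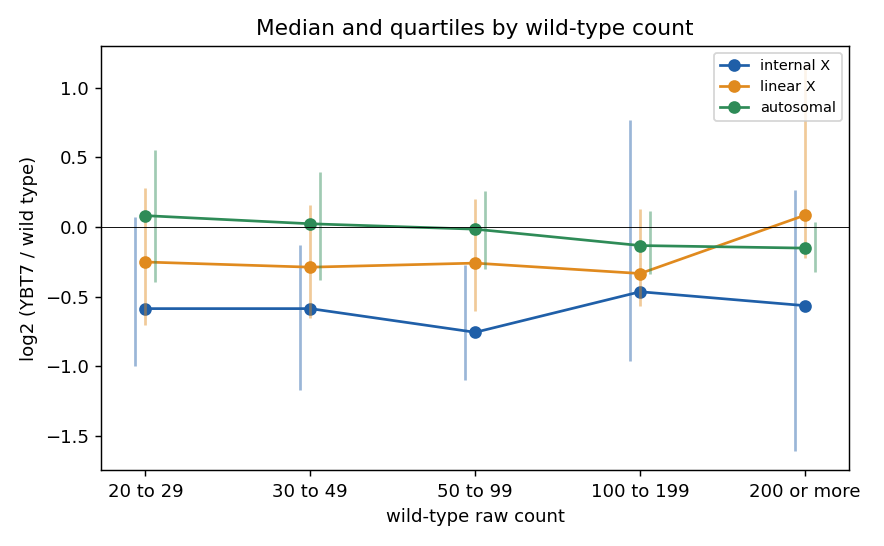
Median log2 ratio of YBT7 to wild type (points) and quartiles (vertical lines) for genes grouped by their wild-type raw count, for the internal X, linear X and autosomal genes. Internal X medians lie between -0.75 and -0.46 in the 5 classes and are the lowest of the 3 sets in each.

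The genes called lower were mostly genes known by a sequence name alone. The largest differences among well counted members were in R09F10.8, with 369 wild-type counts and 111 in YBT7 (ratio 0.201, 0.161 to 0.249), and in the adjacent genes W06D11.3, with 302 and 92 (ratio 0.203, 0.159 to 0.257), and W06D11.1, with 117 and 34 (ratio 0.194, 0.128 to 0.286). In each of these the YBT7 library held far fewer raw counts although it was the deeper library. W07E11.1 had 204 and 76 counts (ratio 0.248, 0.188 to 0.325), T09B9.1 had 259 and 110 (ratio 0.283, 0.224 to 0.355), and R04D3.3 had 282 and 131 (ratio 0.310, 0.250 to 0.382). Lower still in ratio, at smaller counts, were C17H11.2, with 44 and 10 (ratio 0.152, 0.0680 to 0.306), B0416.4, with 99 and 27 (ratio 0.182, 0.114 to 0.281), and C25A11.10, with 48 and 15 (ratio 0.208, 0.108 to 0.378). Only 3 of the genes called lower have a symbol. One is lsd-1, a homologue of the LSD1 histone demethylase, with 50 and 13 counts (ratio 0.173, 0.0864 to 0.324). The paper's discussion names lsd-1, with atf-5, among regulators that were upregulated in YBT7, whereas the lsd-1 counts here were lower. Another is meg-1, a maternal gene for a germ granule protein of the early embryo, with 556 and 346 (ratio 0.415, 0.362 to 0.475), a call that was lost with TMM scaling (log2 ratio -1.22) and with YBT7 thinned to the wild-type total (-1.23), and the last is rgs-11, a regulator of G protein signalling, with 97 and 44 (ratio 0.302, 0.207 to 0.436), whose call was lost with thinning (-1.63). Of the 131 members known by a sequence name alone 18 were called lower and 5 higher, with a median of -0.79. The 140 members with a symbol had 3 lower, 10 higher and a median of -0.55. Summed over the 21 genes called lower, the scaled counts were 4823 in wild type and 1428 in YBT7.

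The genes called higher were led by genes of cuticle and muscle. The collagen genes col-181, with 186 wild-type counts and 3658 in YBT7 (ratio 13.1, 11.3 to 15.3), col-178, with 94 and 1582 (ratio 11.2, 9.11 to 13.97), and col-184, with 109 and 1780 (ratio 10.9, 8.97 to 13.3), had the largest ratios of the 271 members. Next were the muscle genes unc-27, which encodes troponin I (46 and 704, ratio 10.2, 7.57 to 14.1), tnt-2, which encodes troponin T (71 and 819, ratio 7.69, 6.03 to 9.94), and csq-1, which encodes the calcium store protein calsequestrin (24 and 244, ratio 6.78, 4.45 to 10.8). The marker sums above moved the same way, by 11.3-fold for hypodermis and cuticle and 4.73-fold for body wall muscle, and tnt-2 is itself one of those markers. T04F8.8, known by its sequence name alone, had 21 and 220 counts (ratio 6.98, 4.46 to 11.5). Smaller ratios were found for the remaining called genes. Of these, sams-1, an S-adenosylmethionine synthetase gene, had 39 and 247 (ratio 4.22, 3.003 to 6.08), ZC373.2 had 727 and 3570 (ratio 3.27, 3.02 to 3.55) and F59F4.2 had 169 and 802 (ratio 3.16, 2.68 to 3.76). Called with a ratio near 3 were also his-24, a linker histone H1 gene, with 82 and 373 counts (ratio 3.03, 2.38 to 3.90), and atf-5, a bZIP transcription factor gene, with 34 and 155 (ratio 3.04, 2.09 to 4.55). The call of atf-5 was lost with total count scaling (log2 ratio 1.53) and with thinning (1.59).

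The genes called higher added much to the segment's total. The summed scaled counts of all members were 40956 for wild type and 50470 for YBT7, which is a ratio of 1.23, while the median member had a ratio of 0.639. The 15 genes called higher held 5.36% of the members' counts in wild type and 24.4% in YBT7. Without them the sums were 38762 and 38140, a ratio of 0.984. Leaving out only genes picked as higher must lower the ratio, and these sums still hold the 21 genes called lower (4823 and 1428). Leaving out the collagens and the muscle list left 8 genes called higher and 21 lower, with a median of -0.67.

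**Figure D3:**
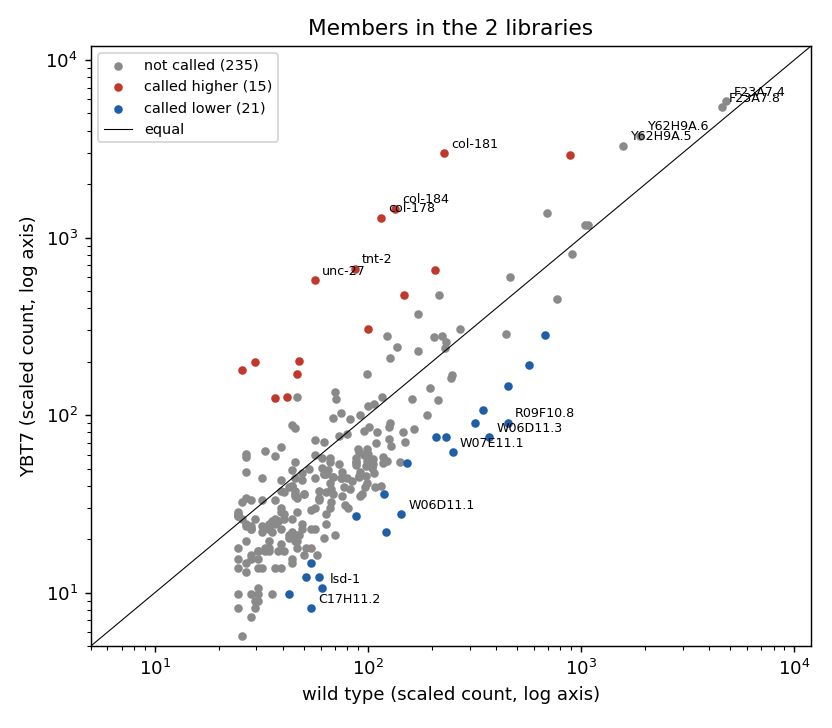
Scaled count in YBT7 (vertical, log axis) against wild type (horizontal, log axis) for the 271 members, with the line of equal values and the 15 genes called higher and 21 called lower in colour. Most points lie under the line, while col-181 and other called genes stand well above it, and F23A7.4 at the upper end lies near it.

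Along the segment, the lower values were found over most of its length. In windows of 1 Mb counted from the left border, the medians were -0.54 (28 members), -0.78 (23), -0.67 (31), -0.82 (32), -0.63 (31), -0.58 (29), -0.87 (37) and -0.63 (41). The last window, 0.74 Mb at the right border, had 19 members and a median of 0.08. It held no gene called lower and no log2 ratio below -1, and 2 genes called higher. At the left border a stretch of the same length held 22 members with a median of -0.63, of which 31.8% were below -1. The 30 linear X genes within 1 Mb outside the left cut had a median of 0.10, and the 34 linear X genes right of the cut -0.24. The windows were described after their values were known, and the difference between the last window and the others was not tested.

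The members nearest the borders were given by position on the unbroken X, although the paper reports these borders as fused in YBT7. On the left, ZK154.4 had 23 wild-type counts and 29 in YBT7 (ratio 0.841, 0.470 to 1.52) and ZK154.5 had 80 and 63 (ratio 0.525, 0.371 to 0.740). On the right, let-2, a gene for a type IV collagen of basement membranes, had 100 and 344 (ratio 2.29, 1.83 to 2.89) and F38E9.5 had 56 and 118 (ratio 1.40, 1.01 to 1.97). The left pair had ratios below 1 and the right pair above 1, and none was called.

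**Figure D4:**
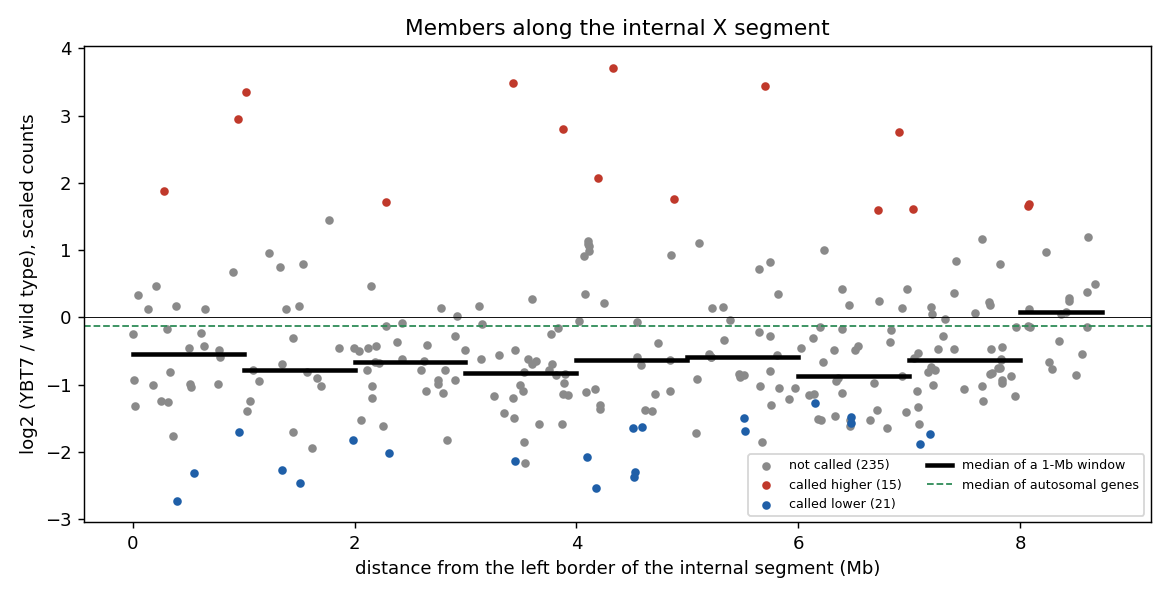
Log2 ratio of YBT7 to wild type in scaled counts (vertical) for each member against its distance from the left border in Mb (horizontal), with genes called higher or lower in colour, the median of each 1-Mb window as a black bar and the autosomal median as a dashed line. The window medians run from -0.87 to -0.54 in the first 8 windows and reach 0.08 in the last, and genes called lower occur in each of those 8.

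By the median difference, genes close together differed a little less than genes far apart. The median absolute difference in log2 ratio between consecutive members was 0.68 for the 52 pairs under 2 kb apart, 0.85 for the 100 pairs from 2 to 20 kb and 0.94 for the 118 pairs at 20 kb or more. By a second measure this was not seen. Of these pairs 26 of 52, 51 of 100 and 63 of 118 lay on the same side of -0.5, a share that did not fall with distance. Small groups of alike neighbours were seen, and they were picked after their values were known. The genes Y62H9A.3, Y62H9A.4, Y62H9A.5 and Y62H9A.6 lie within 11879110 to 11884043 and had log2 ratios of 1.10, 1.14, 1.06 and 0.99. The pair with the highest counts, Y62H9A.6 (1542 and 4588 counts, ratio 1.98, 1.87 to 2.10) and Y62H9A.5 (1287 and 4036, ratio 2.09, 1.96 to 2.23), follow the F23A7 genes in wild-type count. The preceding member, F54F7.6, only 12048 bp away, had 42 and 15 counts and a log2 ratio of -2.07. In the group K04C1.2, K04C1.3, K04C1.5 and E02H4.6, from 14238708 to 14252136, all log2 ratios lay between -1.62 and -1.48, with K04C1.5 at 465 and 234 counts. The genes lin-15B and lin-15A, which share an operon, had log2 ratios of -1.17 and -0.14, and the genes overlap.

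By function, 6 of the lists, which are small and were written from general knowledge, had a median below -0.5. Over all members the median was -0.65, with 74.2% below 0 and 56.5% below -0.5. Of 6 members from the germ cell and oocyte list all were below 0, 3 were below -0.5 and 1, meg-1, was called lower, by a call lost under TMM scaling and thinning (median -0.64). Others in it were gap-2, a Ras GTPase activating protein gene, with 74 and 55 counts (ratio 0.495, 0.343 to 0.712), the forkhead gene fkh-3, with 54 and 70 (ratio 0.864, 0.597 to 1.26), and the cell cycle kinase gene cdk-4, with 54 and 67 (ratio 0.827, 0.569 to 1.21). The list thus ran from clearly lower to near equal. The 2 members of the DNA repair and cell division list, cdk-4 and csb-1, the latter at 36 and 49 counts, were not called.

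Chromatin genes were found at both ends. In the list of 12 members, 8 were below -0.5, 1 was called lower and 1 higher (median -0.82). Over all members 56.5% were below -0.5. A group of 5 chromatin enzymes and readers was made after the values were seen, with bet-2 from outside the list. All of lsd-1, chd-3, bet-2, hpl-1 and utx-1 were below -0.5. Among them chd-3, a gene for a Mi-2 type remodeller, had 57 and 26 counts (ratio 0.304, 0.184 to 0.492), the double bromodomain gene bet-2 had 96 and 66 (ratio 0.458, 0.330 to 0.634) and the H3K27 demethylase gene utx-1 had 31 in each library (ratio 0.667, 0.392 to 1.13). The 3 histone genes, a group also made after the values were seen, were all above 0. These were his-24, given above, the histone H3.3 gene his-71, with 26 and 54 counts (ratio 1.38, 0.852 to 2.30), and the H1-like gene hil-3, with 51 and 86 (ratio 1.12, 0.786 to 1.62). Histone genes form families whose reads can be shared, and 2 of these 3 intervals held 1. The gene lin-15B, which represses germline genes in somatic cells, had 87 and 58 counts (ratio 0.444, 0.313 to 0.627). In a group also made after the values were seen, the X-linked sex and dosage compensation genes sdc-2, with 23 and 20 counts (ratio 0.580, 0.302 to 1.10), sdc-1, with 23 and 19 (ratio 0.551, 0.284 to 1.06), and sex-1, with 43 and 61 (ratio 0.946, 0.630 to 1.43), had intervals that held 1.

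Of 11 transcription factor and Mediator genes 10 were below 0 and 4 below -0.5, and atf-5 was called higher (median -0.37). Over all members 56.5% were below -0.5 and the median was -0.65, so this list was lowered less than the members as a whole. The Mediator gene dpy-22 had 104 and 110 counts (ratio 0.705, 0.534 to 0.931). Of 3 genes for RNA-binding and small RNA proteins, 2 were lower without being called. These were alg-1, an Argonaute of the microRNA pathway, with 36 and 19 counts (ratio 0.352, 0.191 to 0.630), and the cyclophilin gene cyn-8, with 105 and 82 (ratio 0.521, 0.385 to 0.702). The poly(A)-binding protein gene pab-2 had 112 and 296 (ratio 1.76, 1.41 to 2.21). The elongation factor gene eef-1A.2, the single translation gene, had 182 and 343 (ratio 1.26, 1.05 to 1.51).

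All 10 members of the list of kinases, phosphatases and signalling were below 0 and 8 were below -0.5 (median -0.84), with none called. Over all members 74.2% were below 0 and 56.5% below -0.5. Among them were git-1, a gene for a GTPase activating adaptor (74 and 56 counts, ratio 0.505, 0.350 to 0.724), the Rac gene mig-2 (72 and 67, ratio 0.620, 0.438 to 0.878) and the G protein-coupled receptor kinase gene grk-1 (78 and 73, ratio 0.624, 0.447 to 0.870). In each the deeper YBT7 library held fewer raw counts. The membrane traffic list had 5 of 6 members below 0 and 3 below -0.5 (median -0.52). It included epn-1, an epsin gene of endocytosis (200 and 198, ratio 0.660, 0.540 to 0.807), the dynamin gene dyn-1 (72 and 64, ratio 0.593, 0.416 to 0.842), the KDEL receptor gene erd-2 (131 and 152, ratio 0.774, 0.608 to 0.985) and the organelle fission gene fis-2 (90 and 99, ratio 0.733, 0.546 to 0.987). In the list of cytoskeleton, junctions and matrix 6 of 9 were below -0.5 and 2 above 0.5 (median -0.82). The gap junction gene inx-2 had 122 and 86 counts (ratio 0.470, 0.352 to 0.624), the syndecan gene sdn-1 had 103 and 90 (ratio 0.583, 0.434 to 0.781) and the dystroglycan gene dgn-1 had 50 and 70 (ratio 0.933, 0.640 to 1.37), while let-2 was higher.

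Genes of mitochondria and metabolism stood apart from these lists in their values, with a median of 0.18 over 7 members, 3 above 0.5, 2 below -0.5 and sams-1 called higher. The succinyl-CoA ligase subunit gene suca-1 had 222 and 376 counts (ratio 1.13, 0.954 to 1.34), and gas-1, a gene for a subunit of respiratory complex I, had 81 and 210 (ratio 1.73, 1.33 to 2.26). In contrast, sdha-1, a gene for the flavoprotein subunit of succinate dehydrogenase, had 86 and 65 (ratio 0.504, 0.359 to 0.704). In the muscle list 4 of 5 members were called higher (median 2.76), with dim-1, a gene for an immunoglobulin domain protein of muscle, at 38 and 209 counts (ratio 3.67, 2.59 to 5.33). All 3 members of the collagen family were called higher, while 13 more of its 16 genes on the segment were below the minimum. No gene of the lists for intestine and yolk (6 on the segment), neurons (9) or proteolysis (1) reached the minimum. Over all lists, 64 members had 7 genes called higher and 2 lower (median -0.52), and the 207 members in no list had 8 and 19 (median -0.69).

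**Figure D5:**
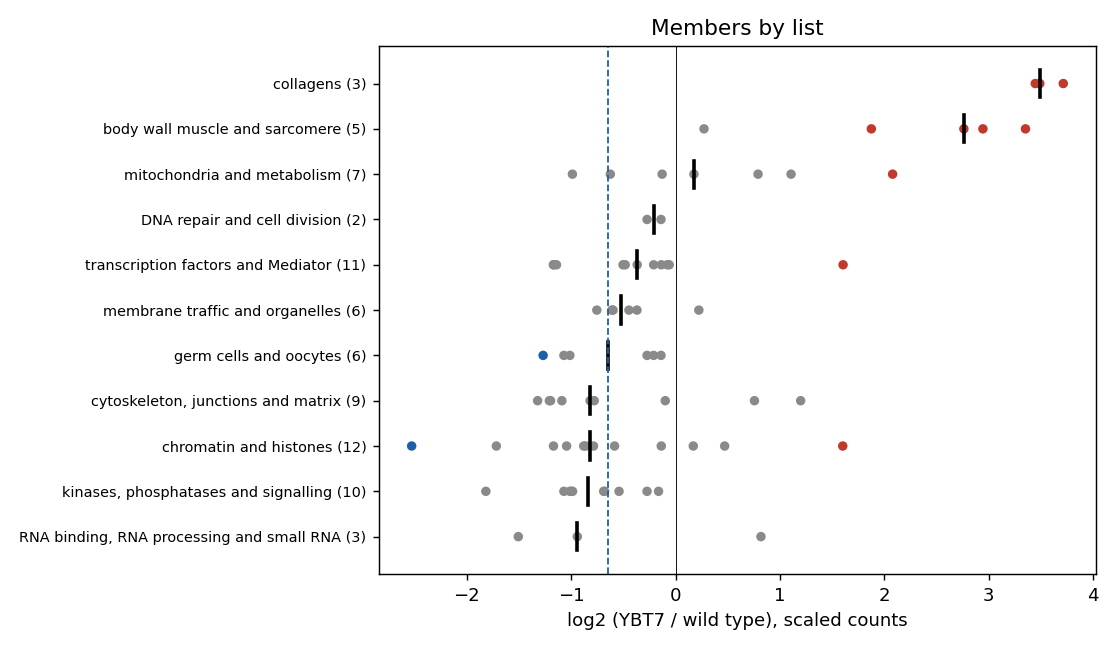
Log2 ratio of YBT7 to wild type in scaled counts (horizontal) for the members of each list (rows, with the number of members), with genes called higher in red, called lower in blue, the list median as a black bar and the median of all members as a dashed line. Collagens and the muscle list lie to the right with medians of 3.49 and 2.76, and all 10 signalling genes lie left of 0.

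The minimum of 20 counts cut through a dense range of values. The 6 genes of the segment with 18 wild-type counts had a median of 23.5 counts in YBT7, the 9 with 19 had 22, the 9 members with 20 had 22 and the 4 with 21 had 36. Just inside were F46C3.4 (20 and 10), adm-4, a gene for an ADAM protease (20 and 12), eat-20 (20 and 17), B0395.3 (20 and 19), phf-34 (20 and 22), syd-2, a liprin gene (20 and 33), F11C1.5 (20 and 33), cyp-13B2 (20 and 34) and gob-1 (20 and 35). At 21 were vhl-1, a gene for a ubiquitin ligase subunit that acts on the hypoxia factor (21 and 7), F13E6.5 (21 and 32), F54F7.3 (21 and 40) and T04F8.8, given above. Just outside were sek-1, a MAP kinase kinase gene (18 and 10), and col-179, a further collagen gene (18 and 175), at the ends of the range. The other genes just outside were myrf-2 (18 and 15), F59D12.5 (18 and 21), H03A11.1 (18 and 26), F49E2.2 (18 and 47), C33G3.6 (19 and 14), F11C1.7 (19 and 15), mbk-1 (19 and 19), moc-1 and D1025.1 (19 and 22 each), pkc-2 (19 and 25), apa-2 (19 and 29), ver-3 (19 and 34) and unc-115 (19 and 38). Values on the sides of the minimum overlapped. In YBT7 29 members had under 20 counts and the lowest had 7, so no member was missing from that library.

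Some members differed little. The 6 well counted members nearest a log2 ratio of 0 included C39D10.7, tbh-1, ftt-2 and suca-1, given above, and F20D1.3 (187 and 292 counts, ratio 1.04, 0.863 to 1.26) and F20D1.1 (190 and 318, ratio 1.12, 0.929 to 1.34). The F20D1 genes lie between rgs-11, which was called lower, and rbg-1, at 36 and 27 counts, and the gene tbc-1 between them had 82 and 74 (ratio 0.602, 0.433 to 0.834). Near-equal and lower genes thus stood next to each other here.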

How the data were processed

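After trimming (cutadapt, version 1.12), the authors mapped the reads with TopHat2 (version 2.1.1) to WBcel235 and took counts for each gene in HTSeq (version 0.6.0). Their normalization used DESeq2 (version 1.12.4). The primer carried a molecular identifier, and whether counts were collapsed by it is not given in the sources used here. The deposited raw counts were used, and the authors' normalized values, log2 fold changes and decision column were not. Median-of-ratios size factors rested on 10603 genes that both libraries detected and that had 3 or more counts in sum. Coordinates and names are those of the deposited table, overlaps were worked out from these coordinates, and biotypes came from an Ensembl annotation of the same build. Of the 271 members 12 had the same start and end in that annotation. The members and lists were chosen with earlier results of these data known. The calling rule is that of the study's methods. Named genes were the 10 highest in wild type, the 10 called higher with the largest lower limits and the 10 called lower with the smallest upper limits, the 6 nearest 0 with at least 100 counts, up to 4 from every list by mean level (called genes before others), those at the borders and at the minimum, and linc-20 and deg-1. With 1 library per strain there is no p-value. Any other gene was named after its value was seen. The calling rule was also run on simulated counts that held counting error only. These lack any spread between animals or dissections, so nothing is concluded from them about false calls here. Alternatives were scaled with edgeR (version 4.0.16) in R 4.3.3 or computed in Python 3.11.15. Its packages were scipy 1.17.1, numpy 2.4.6, matplotlib 3.10.9 and pandas 2.3.3.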

Additional observations from a re-analysis of the deposited data

How the results depend on the processing

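No paired analysis was possible because each strain has 1 library, and no replicate could be left out. TMM, upper quartile, total count and autosomal scaling, thinning of YBT7 and a pseudocount of 1 kept 14 or 15 of the 15 higher calls and 15 to 21 of the 21 lower ones. The calls of atf-5 (total counts, thinning) and meg-1 (TMM, thinning) were lost, as were those of R04D3.4, F31F6.2, M02D8.3, C34F6.9, E02H4.6 and rgs-11 under at least 1 of these. A fixed limit of 2-fold called 23 higher and 83 lower. With a minimum of 50 counts, 8 of 137 members were called higher and 16 lower, against 78 and 25 of all 4975 genes. With a minimum of 100 counts, 5 of 54 members were called higher and 12 lower, against 47 and 13 of all 4078 genes. These sets are smaller than the 271 members, so their counts of calls are smaller for that reason too. At 100 counts the median was -0.48, 50% were below -0.5, 24.1% above 0.5 and 16.7% above 1. There 5 windows had a median below -0.5 in place of 8. Chosen on the mean of both libraries, 47 of 287 genes were called higher and the median was -0.43. Of these genes 45.6% were below -0.5, 24.04% below -1, 25.4% above 0.5 and 20.9% above 1. Chosen on the YBT7 count, an alternative added after seeing the data, 62 of 272 were called higher and the median was 0.10. Of these 33.1% were below -0.5, 13.97% below -1, 38.2% above 0.5 and 32.4% above 1. Without somatic lists and collagens 8 of 263 members were called higher. A minimum of 10 counts, divided wild-type reads and leaving out overlapping genes kept each count of calls within 1.5 times. So did keeping protein coding genes only and leaving out the last window, both also added after seeing the data. Among these alternatives windows were counted only at the minimum of 10, where 6 had a median below -0.5 in place of 8. Depth limits single genes most at the minimum of 20 counts, and the spread between animals is unknown.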
